A study of Mus musculus with 62 samples.

Results

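The 9 genes described here are known targets of the peroxisome proliferator-activated receptors (PPARs), together with the mitochondrial uncoupling proteins: Ucp2, Ucp3, Pdk4, Angptl4, Plin2, Cpt1a, Acot1, Acot2 and Cd36. They were taken by symbol from a gene expression table of mouse hearts. They are 9 of the 47643 symbols in that table, and all 9 were among the 12541 genes that passed the filter on low values.

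Hearts were collected 2, 4, 6 or 8 weeks after injection, from mice given melanoma cells that cause cachexia (wasting; group CAC), from mice given melanoma cells that do not (NCAC), and from mock-injected controls (Con). The labels give female mice of 2 months, and they give the strain as C57BL6/J on the samples but as NCI Ath/nude in the series' own design text, so the strain cannot be settled. The melanoma lines are not named, no engineered allele or drug is listed, and no batch or date is given. Each arm had 5 hearts per week, except 7 in CAC at week 8 and 4 in Con at week 4, where replicate 2 was left out. In that library 89.1% of TPM came from mitochondrial DNA, against 49.3% to 61.1% in the other 61. Its level of the heart muscle myosin Myh6 was 612 TPM, against 3419 to 8033 TPM. Ucp3 was 3.21 TPM and Cd36 261 TPM there, both below all other 61 hearts.

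Values are in TPM, a share of all transcripts corrected for transcript length, so levels can be set side by side between genes. The number of reads behind them is not given with TPM. Differences were tested with limma on log2(TPM + 1) in 1 fit of 61 libraries, and p-values were adjusted by the Benjamini-Hochberg method over the 12541 genes. A gene is called when its adjusted p is below 0.05, and only then is it said to rise or fall. Folds come from the differences of log2(TPM + 1), so they are folds of TPM + 1 and understate the change at low TPM. In whole-heart RNA, fewer cells of a type and less RNA per cell cannot be told apart. The p-values measure the spread between the hearts of a group, which the protocol calls biological replicates.

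Libraries were of cardiac character: Myh6, the alpha myosin heavy chain of heart muscle, lay between 3419 and 8033 TPM in the 61 libraries, and the skeletal myosins Myh1, Myh2 and Myh4 stayed at or below 0.316 TPM. Of the other skeletal muscle markers read, Ckm (562 to 1296 TPM) and Acta1 (26.8 to 1810 TPM) are also made by heart muscle, and Casq1 ran from 1.76 to 56.7 TPM. Transcripts encoded in mitochondrial DNA made up 49.3% to 61.1% of TPM, with group means of 51.2% to 55.0% in CAC and 57.2% to 59.3% in Con and NCAC. The median tested gene was not at 0 in CAC against Con. It was 0.10, 0.09, 0.21 and 0.19 higher on the log2 scale at weeks 2, 4, 6 and 8. A median-of-ratios rescaling, which sets the typical gene to no difference, was used as an alternative for each of these tests, and its values are given beside calls it altered. CAC replicate 3 at week 8 stood apart from its group, with 54.9 TPM of the acute-phase gene Serpina3n against 1665 to 2841 TPM in the other 6 hearts.

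PPARs are nuclear receptors that bind fatty acids, pair with a retinoid X receptor and switch on genes for taking up, storing and burning fat. They bind a response element made of a pair of AGGTCA core motifs spaced by a single base. In the heart, PPAR alpha and PPAR delta are best known for matching fatty acid use to supply, for example in fasting, when Pdk4 and Ucp3 are classic responders. Uncoupling proteins are carriers of the mitochondrial inner membrane: UCP3 is found mostly in muscle and heart, while UCP2 is found in many tissues and is abundant in macrophages and other immune cells.

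Ucp3 and Ucp2 are neighbours on the same strand of mouse chromosome 7 (Ucp3 at chr7:100472990-100486432 and Ucp2 at chr7:100493337-100502020, plus strand, GENCODE gene spans on mm10), with 6904 bases between them. Since their levels went opposite ways, the RefSeq promoter sequences just upstream of each start (bases 220 to 31 before the start, GRCm38.p6) are printed. Capitals mark the nuclear receptor core motif AGGTCA and the GC box GGGCGG on either strand.
Ucp3, chr7:100472771-100472960: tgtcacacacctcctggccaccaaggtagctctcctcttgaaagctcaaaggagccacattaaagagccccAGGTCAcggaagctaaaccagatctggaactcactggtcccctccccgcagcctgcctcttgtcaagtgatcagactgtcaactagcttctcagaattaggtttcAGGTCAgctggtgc
Ucp2, chr7:100493138-100493327: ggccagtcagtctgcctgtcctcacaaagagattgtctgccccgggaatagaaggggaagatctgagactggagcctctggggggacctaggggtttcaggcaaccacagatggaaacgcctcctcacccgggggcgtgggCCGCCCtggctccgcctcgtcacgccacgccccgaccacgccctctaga
The Ucp3 stretch holds 2 core motifs and no GC box, and the Ucp2 stretch holds 1 GC box and no core motif.

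RefSeq promoters were found for 8 of the 9 genes (not Angptl4), and 250 bases before each start were searched on both strands. The full response element, AGGTCA, any base and AGGTCA again, stood in 0 of the 8 and in 0.0335% of all 32851 promoters of that length. With up to 2 bases off, it stood in 3 of the 8 and in 3.24% of all promoters. These 3 sites are printed, because they are the closest matches to a PPAR element near the starts of these genes, with the bases that differ from the element in lower case.
Ucp3, chr7:100472940-100472952, 51 to 39 bases before the start: AGGTttCAGGTCA
Plin2, chr4:86670272-86670284, 225 to 213 bases before the start, opposite strand: AGGTCAGgGGTCc
Cd36, chr5:17835947-17835959, 63 to 51 bases before the start, opposite strand: AaGTCAGAGGcCA
A single core motif AGGTCA, which any full element contains, stood in 4 of the 8 promoters (Ucp3, Cd36, Cpt1a and Plin2) and in 14.0% of all. The CCAAT box CCAAT stood in 6 of 8 against 33.8% of all, the GC box GGGCGG in 4 of 8 against 32.7%, and the TATA box TATAAA in 0 of 8 against 12.4%. These are matches of letters in a short window and describe the sequence only.

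Compared with controls, hearts of mice with cachectic melanoma showed several courses among these genes. Plin2 and Cd36 were called higher at weeks 4, 6 and 8, and Ucp2 at weeks 6 and 8. Ucp3 was called higher at week 2 (2.57-fold) and lower at week 8, at a fitted fold of 0.336. Cpt1a was called higher at weeks 4 and 6, and Angptl4 lower at week 8. Pdk4 and Acot1 were called higher at week 4 only, and Acot2 was called higher at week 4 and lower at weeks 6 and 8. In the hearts of mice with non-cachectic melanoma none of the 9 genes was called at any week.

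The uncoupling proteins come first. Ucp2 stood at 9.66, 8.01, 9.44, 7.15 and 8.52 TPM in the 5 CAC hearts at week 2, against 8.08, 6.13, 7.84, 6.13 and 8.65 TPM in Con and 10.3, 7.62, 8.74, 9.75 and 9.55 TPM in NCAC. The 3 arms overlapped at that week. At week 4, the CAC hearts stood at 10.4, 19.5, 11.0, 16.9 and 7.33 TPM against 6.79, 11.1, 10.1 and 9.03 TPM in Con and 7.16 to 11.4 TPM in NCAC. Replicates 2 and 4 were the high CAC hearts, and the other 3 overlapped the controls.

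At week 6, Ucp2 was 21.8, 12.8, 11.7, 13.7 and 10.5 TPM in CAC and 6.21, 9.22, 7.24, 8.85 and 8.43 TPM in Con, with no overlap. NCAC at week 6 (10.9, 13.8, 8.45, 10.7 and 8.42 TPM) overlapped CAC. At week 8, the 7 CAC hearts stood at 23.9, 24.6, 14.1, 22.7, 21.0, 23.9 and 19.2 TPM. All were above the 5 Con hearts (7.40, 11.2, 11.2, 8.71 and 10.1 TPM) and the 5 NCAC hearts (8.43, 6.26, 8.04, 7.64 and 9.85 TPM).

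Ucp2 thus rose at week 6, by a log2 difference of 0.72 (SE 0.17, limma adjusted p = 0.000439) against Con, and at week 8, by 1.05 (SE 0.16, 95% interval 0.74 to 1.37, limma adjusted p = 1.56e-07), which is 2.08-fold. Against NCAC the week 8 difference was 1.30 (SE 0.16, limma adjusted p = 1.06e-09), while the difference of 0.38 at week 6 was not called (limma adjusted p = 0.0568). At week 2 the difference from Con was 0.20 (limma adjusted p = 0.496) and at week 4 it was 0.40 (95% interval 0.03 to 0.76, limma adjusted p = 0.129). Without CAC replicate 5 at week 4, that week's difference was called as well (limma adjusted p = 0.0243).

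Ucp3, the carrier of muscle and heart, ran the other way. At week 2 it stood at 43.9, 30.5, 17.5, 33.6 and 27.4 TPM in CAC and at 6.93, 7.30, 16.4, 11.0 and 15.7 TPM in Con. These did not overlap, although the lowest CAC heart was close to the highest control. NCAC at week 2 was widely spread (12.7, 12.1, 23.2, 38.8 and 8.66 TPM) and overlapped both. At week 4, CAC stood at 22.2, 44.7, 29.9, 35.7 and 18.8 TPM, Con at 15.7, 22.1, 13.4 and 10.1 TPM and NCAC at 12.7 to 35.8 TPM.

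By week 6, Ucp3 was 12.1, 12.3, 5.71, 27.3 and 12.7 TPM in CAC, which overlapped Con (8.19, 22.9, 22.9, 8.44 and 31.1 TPM) although CAC replicate 3 was below all controls, and lay mostly below NCAC (49.0, 31.9, 19.8, 18.0 and 30.1 TPM). At week 8, the CAC hearts stood at 4.42, 4.47, 16.5, 11.6, 6.35, 5.69 and 5.31 TPM, the controls at 34.3, 30.1, 16.8, 23.3 and 14.7 TPM and NCAC at 13.1, 18.0, 16.9, 27.3 and 25.3 TPM. Only CAC replicate 3, the heart with low Serpina3n, reached into the range of the other arms, and the other 6 were below all of them.

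Ucp3 was higher in CAC than in Con at week 2 by 1.36 on the log2 scale (SE 0.37, 95% interval 0.62 to 2.11, limma adjusted p = 0.0389). This call was not firm: it was lost after rescaling (1.26, limma adjusted p = 0.103) and on leaving out any 1 of CAC replicates 1, 2, 4 and 5 or Con replicates 1, 2 and 4 (limma adjusted p up to 0.175). At week 8, Ucp3 was lower, at -1.57 against Con (SE 0.34, limma adjusted p = 0.000108) and at -1.36 against NCAC (SE 0.34, limma adjusted p = 0.000565). Against NCAC it was also lower at week 6, at -1.10 (SE 0.37, limma adjusted p = 0.0108), although not when CAC replicate 3 of that week was left out (limma adjusted p = 0.0608). Without CAC replicate 3 at week 8, the week 8 difference from Con was -1.76.

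**Figure D1:**
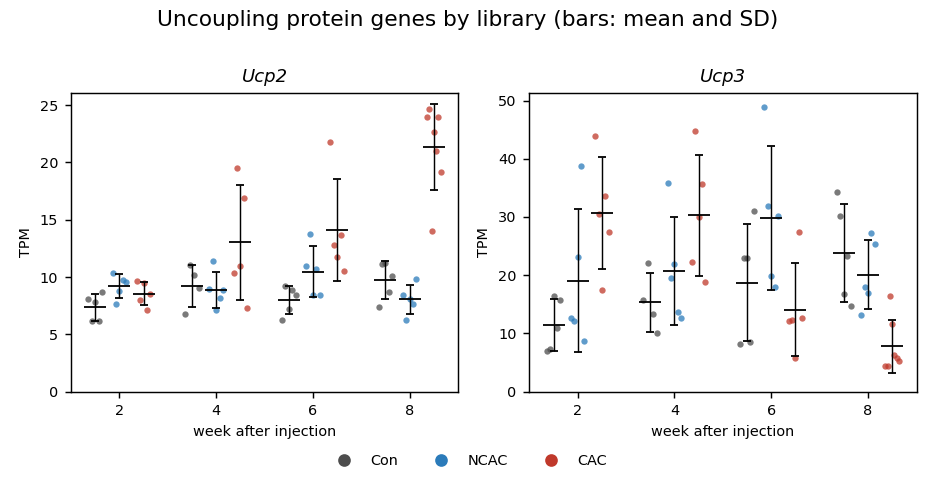
Ucp2 and Ucp3 in TPM by library at weeks 2, 4, 6 and 8 (Con grey, NCAC blue, CAC red; points are hearts, bars mean and SD). At week 8 the CAC hearts have the highest Ucp2, 14.1 to 24.6 TPM, and 6 of the 7 have the lowest Ucp3, 4.42 to 11.6 TPM.

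The ratio of Ucp2 to Ucp3 in the same heart shows the shift without any scaling between libraries. Its median in CAC was 0.262 at week 2 (range 0.212 to 0.541), 0.437 at week 4, 1.04 at week 6 and 3.61 at week 8 (range 0.853 to 5.51). In Con the medians were 0.558, 0.629, 0.403 and 0.374, and in NCAC 0.631, 0.587, 0.426 and 0.390. Ucp3 was therefore the more abundant transcript in all 5 CAC hearts at weeks 2 and 4, and Ucp2 was the more abundant one in 6 of 7 CAC hearts at week 8. The third classic member, Ucp1 of brown fat, was at 0 in 48 of the 61 libraries and never above 0.159 TPM.

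Many markers of macrophages and monocytes, cells in which Ucp2 is abundant, were higher in CAC than in Con from week 4, when Ucp2 was not yet called. The summed level of 13 such markers had a median of 319 TPM in CAC at week 2 (range 305 to 478), 429 at week 4 (401 to 529), 612 at week 6 (469 to 777) and 841 at week 8 (486 to 993). In Con the medians were 253, 237, 221 and 297 TPM, within a range of 214 to 340, and in NCAC 282, 245, 258 and 249.5 TPM. Of these 13 markers, 1, 10, 13 and 12 were called higher in CAC than in Con at weeks 2, 4, 6 and 8. The shares of all tested genes called higher were 1.83%, 12.7%, 50.5% and 50.8%. CAC replicate 3 at week 8 had both the lowest marker sum (486 TPM) and the lowest Ucp2 (14.1 TPM) of its group. The part of these cells in the Ucp2 result was not tested. The summed level of 10 cardiomyocyte markers had medians of 37541, 33317, 36071 and 26697 TPM in CAC and 35111, 34072, 33917 and 34654 TPM in Con, so it was lower in CAC at week 8, and its part in the Ucp3 result was not tested. The summed level of 10 skeletal muscle markers, nearly all of it Ckm and Acta1, was also lower in CAC at week 8, with a median of 707 TPM (range 607 to 1075) against 1424 in Con (1357 to 2204) and 1557 in NCAC, and its part was not tested either.

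PDK4 phosphorylates and inactivates pyruvate dehydrogenase and so spares glucose when fat is burned. Pdk4 was 384, 196, 113, 226 and 132 TPM in CAC at week 2 and 39.6, 60.7, 105, 99.1 and 144 TPM in Con, which overlapped. At week 4, CAC stood at 195, 655, 218, 966 and 179.8 TPM, Con at 97.4, 156, 121 and 85.0 TPM and NCAC at 218, 165, 114, 140.4 and 291 TPM. All 5 CAC hearts were above the controls, with replicates 2 and 4 far above the others.

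At week 6, Pdk4 was 83.2 to 190.3 TPM in CAC and 68.1 to 267 TPM in Con. At week 8, it was 104, 97.1, 113, 124, 86.4, 85.8 and 56.6 TPM in the CAC hearts, 267, 203, 82.8, 262 and 66.4 TPM in the controls and 165, 175, 257, 174 and 175 TPM in NCAC. The CAC hearts were all below NCAC and overlapped Con, whose 5 hearts split into 3 high and 2 low.

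Pdk4 rose at week 4 by a log2 difference of 1.61 against Con (SE 0.45, limma adjusted p = 0.0106), or 3.06-fold. That call was lost without CAC replicate 2 (limma adjusted p = 0.0568) or replicate 4 (0.0582), and the difference from NCAC, 0.97, was not called (limma adjusted p = 0.104). At week 2 the difference from Con was 1.22 (SE 0.42, limma adjusted p = 0.104). At week 8, Pdk4 was lower than in NCAC, at a fitted fold of 0.5 (limma adjusted p = 0.0222), but not on leaving out CAC replicate 7 (0.0505) or NCAC replicate 3 (0.064). Against Con the week 8 value was -0.70 (limma adjusted p = 0.118), and -0.92 (limma adjusted p = 0.0439) after rescaling.

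ANGPTL4 is a secreted inhibitor of lipoprotein lipase, the enzyme that frees fatty acids from circulating lipoproteins. Angptl4 was low in these hearts. It stood at 10.8, 4.49, 1.74, 5.58 and 4.66 TPM in CAC at week 2, against 0.922, 0.589, 1.65, 0.715 and 3.88 TPM in Con and 1.14, 0.959, 2.08, 5.32 and 0.520 TPM in NCAC. At week 8, CAC had 0.758, 0.970, 2.03, 1.56, 1.24, 0.349 and 0.712 TPM, Con 5.25, 6.23, 2.49, 1.65 and 0.529 TPM and NCAC 1.30, 3.14, 0.915, 3.45 and 3.75 TPM. The arms overlapped at both weeks, and at such levels a difference on log2(TPM + 1) understates the fold.

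Angptl4 was higher in CAC than in Con at week 2 by 1.32 (SE 0.38), which just missed the threshold (limma adjusted p = 0.0506). At week 8, it was lower by a log2 difference of -0.85 (SE 0.35, limma adjusted p = 0.0344). The week 8 call was lost without any 1 of CAC replicates 1, 6 and 7 or Con replicates 1 and 2 (limma adjusted p up to 0.151). The week 8 difference from NCAC was -0.70 (limma adjusted p = 0.0747), or -0.84 after rescaling (0.0397).

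**Figure D2:**
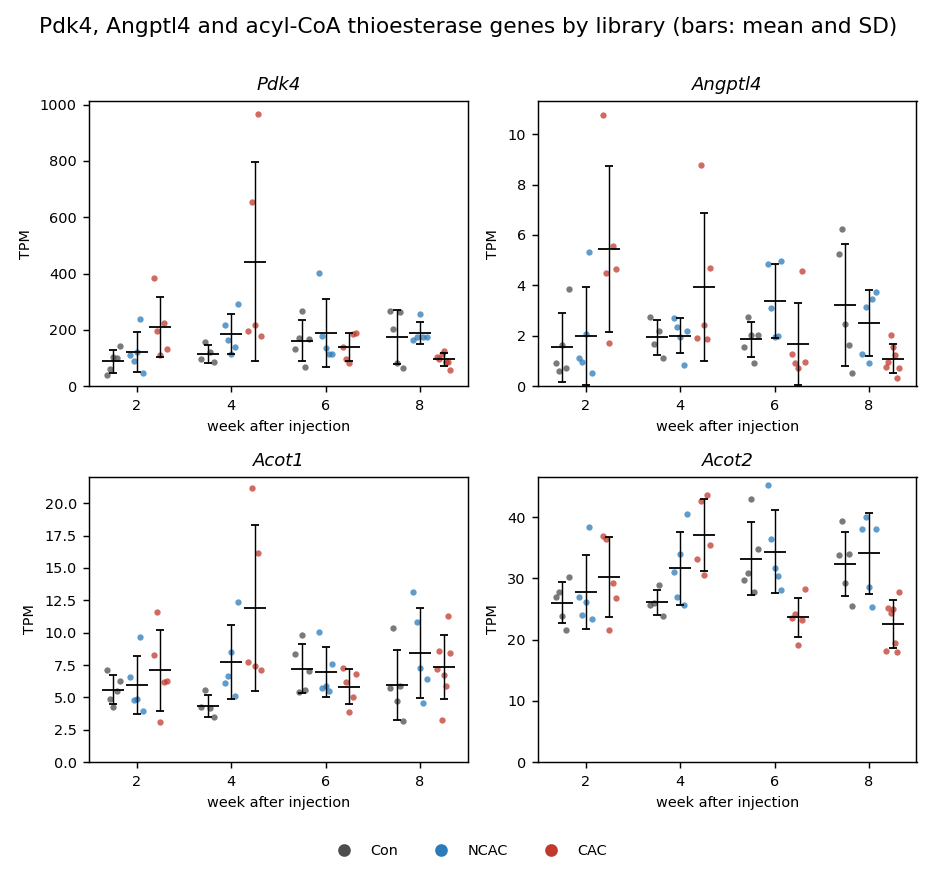
Pdk4, Angptl4, Acot1 and Acot2 in TPM by library and week (Con grey, NCAC blue, CAC red; points are hearts, bars mean and SD). Pdk4 at week 4 shows 2 CAC hearts at 655 and 966 TPM above the other 3 at 179.8 to 218 TPM, and Acot2 lies lower in CAC at weeks 6 and 8.

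Acyl-CoA thioesterases release free fatty acids from their coenzyme A esters, ACOT1 in the cytosol and ACOT2 in mitochondria. Their genes are neighbours on chromosome 12 (Acot2 at chr12:83987861-83993873 and Acot1 at chr12:84009490-84018371, mm10). The transcripts were 94.3% identical over 1330 aligned bases, and 23.7% of the 50-base windows of Acot1 occur unchanged in Acot2, so reads could have been split between them and the values of both are uncertain.

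Acot1 stood at 7.73, 21.1, 7.42, 16.2 and 7.15 TPM in CAC at week 4 and at 4.23, 5.56, 4.15 and 3.52 TPM in Con, with no overlap. Replicates 2 and 4 were again the high ones. NCAC at week 4 ran from 5.07 to 12.4 TPM and overlapped both. The difference from Con was 1.15 (SE 0.29, limma adjusted p = 0.00546, 2.22-fold in TPM + 1). This call held in all 9 fits that left out 1 heart. At weeks 2, 6 and 8 the differences were 0.22, -0.26 and 0.27, none of them called, and against NCAC no week was called.

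Acot2 at week 4 was 33.1, 42.7, 30.5, 43.6 and 35.4 TPM in CAC and 25.6, 26.0, 28.9 and 23.8 TPM in Con. At week 6, it was 23.5, 24.1, 19.1, 23.1 and 28.2 TPM in the CAC hearts, 29.8, 30.9, 42.9, 27.8 and 34.7 TPM in the controls and 28.1 to 45.2 TPM in NCAC. At week 8, it was 18.1, 25.2, 24.3, 25.0, 19.4, 18.0 and 27.7 TPM in the CAC hearts, 33.8, 39.4, 29.2, 34.0 and 25.5 TPM in the controls and 25.4 to 40.0 TPM in NCAC. The CAC hearts were above the controls at week 4, and at weeks 6 and 8 all but 1 lay below every control.

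The Acot2 difference from Con was 0.48 at week 4 (SE 0.16, limma adjusted p = 0.0317), -0.47 at week 6 (SE 0.15, 0.00688) and -0.51 at week 8 (SE 0.14, 0.00149). Against NCAC it was -0.51 at week 6 (limma adjusted p = 0.00352) and -0.57 at week 8 (0.000345). The week 4 call was lost after rescaling (0.38, limma adjusted p = 0.1) and without any 1 of CAC replicates 2 and 4 and Con replicates 1, 3 and 5 (up to 0.107). With the left-out Con heart put back, the adjusted p of the week 6 and week 8 differences from Con became 0.141 and 0.0701, and that of the week 6 difference from NCAC 0.111.

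Perilipin 2, encoded by Plin2, coats lipid droplets, and its level usually follows the amount of stored fat. Plin2 at week 2 was 27.9, 27.4, 35.2, 25.5 and 23.7 TPM in CAC and 16.8, 18.2, 21.0, 20.5 and 22.8 TPM in Con. At week 4, it was 33.0, 62.7, 37.0, 69.8 and 40.1 TPM in CAC and 20.3, 25.5, 22.2 and 18.5 TPM in Con. At week 6, it was 42.8, 53.9, 57.2, 47.4 and 41.3 TPM in CAC and 18.6, 22.9, 21.6, 18.6 and 23.8 TPM in Con. All CAC hearts lay above all controls of their week.

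At week 8, Plin2 stood at 50.7, 46.1, 26.4, 67.2, 72.5, 47.8 and 42.7 TPM in CAC and 26.2, 25.5, 22.0, 20.5 and 22.0 TPM in Con. Replicate 3 was the lowest CAC heart and barely above the highest control. NCAC ran from 15.9 to 26.6 TPM over the 4 weeks and was below CAC at each of them. The difference from Con was 0.47 at week 2, which was not called (SE 0.16, limma adjusted p = 0.108), and 1.08 at week 4 (SE 0.17, 1.56e-05), 1.16 at week 6 (SE 0.16, 8.13e-08) and 1.03 at week 8 (SE 0.15, 9.86e-08). Against NCAC it was 1.08, 1.06 and 1.19 at weeks 4, 6 and 8 (limma adjusted p = 4.09e-06, 6.25e-07 and 3.27e-09).

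CD36 carries long-chain fatty acids into the cell and was by far the most abundant of the 9 transcripts. At week 2, it stood at 819.6, 781, 804, 855 and 786 TPM in CAC and 583, 723, 695, 697 and 779 TPM in Con. At week 6, the values were 1129, 1065, 1011, 1029 and 976 TPM in CAC and 823, 760.5, 810.4, 736 and 739.9 TPM in Con. At week 8, they were 1342, 1212, 779.9, 919.7, 1102, 1159 and 1132 TPM in CAC and 802, 911, 779.8, 774 and 676 TPM in Con. Apart from CAC replicate 3 at week 8, the CAC hearts were above the controls at these weeks, and also at week 4, when CAC ran from 813 to 1096 TPM and Con from 682 to 757 TPM.

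The Cd36 differences from Con were small and precise: 0.22 at week 2 (SE 0.09, limma adjusted p = 0.138), 0.35 at week 4 (SE 0.09, 0.00803), 0.43 at week 6 (SE 0.09, 6.58e-05) and 0.46 at week 8 (SE 0.08, 4.59e-06). Against NCAC they were 0.30, 0.42 and 0.47 at weeks 4, 6 and 8 (limma adjusted p = 0.0141, 7.75e-05 and 2.29e-06). The median tested gene shared part of these differences (0.21 and 0.19 at weeks 6 and 8), and rescaling lowered the values against Con to 0.24, 0.18 and 0.23 at weeks 4, 6 and 8, with week 6 no longer called (limma adjusted p = 0.0648). Rescaling also ended the week 4 call against NCAC (0.20, limma adjusted p = 0.0668). Without CAC replicate 2 the week 4 differences from Con (0.0545) and from NCAC (0.0928) missed the limma threshold.

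CPT1A is the liver-type form of the enzyme that commits fatty acids to mitochondrial oxidation; heart muscle mainly uses CPT1B. Cpt1a at week 2 was 22.9, 26.2, 21.2, 27.3 and 22.7 TPM in CAC and 10.8, 15.6, 17.8, 16.8 and 18.6 TPM in Con. At week 4, it was 30.6, 48.6, 25.5, 26.2 and 23.9 TPM in CAC and 18.4, 19.9, 15.8 and 15.5 TPM in Con. At week 6, it was 30.4, 29.6, 15.8, 50.7 and 32.9 TPM in CAC and 17.3, 17.8, 20.3, 17.1 and 21.0 TPM in Con. CAC and Con did not overlap at weeks 2 and 4, and CAC replicate 3 was below the controls at week 6. NCAC ran from 14.1 to 24.8 TPM at week 2, which overlapped both. At week 4, it ran from 15.3 to 20.9 TPM, below all CAC hearts.

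At week 8, Cpt1a stood at 25.6, 38.9, 22.1, 37.5, 16.0, 29.1 and 32.8 TPM in CAC and 22.6, 25.6, 18.4, 22.0 and 19.0 TPM in Con. Against Con it was 0.59 higher at week 2, not called (SE 0.18, limma adjusted p = 0.076), 0.75 at week 4 (SE 0.20, 0.00633), 0.66 at week 6 (SE 0.18, 0.00239) and 0.36 at week 8, not called (SE 0.17, 0.0599). The week 8 difference was called without CAC replicate 3 (0.42, limma adjusted p = 0.0337). Rescaling left 0.42 at week 6 (limma adjusted p = 0.0615), and the week 4 call was lost without CAC replicate 2 (0.0534). Against NCAC the differences at weeks 4, 6 and 8 were 0.71, 0.53 and 0.50 (limma adjusted p = 0.00552, 0.0126 and 0.00865), of which those at weeks 6 and 8 were lost after rescaling (0.162 and 0.259). Leaving out CAC replicate 2 ended the week 4 call (0.0571), and leaving out CAC replicate 4 the week 6 call (0.102).

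**Figure D3:**
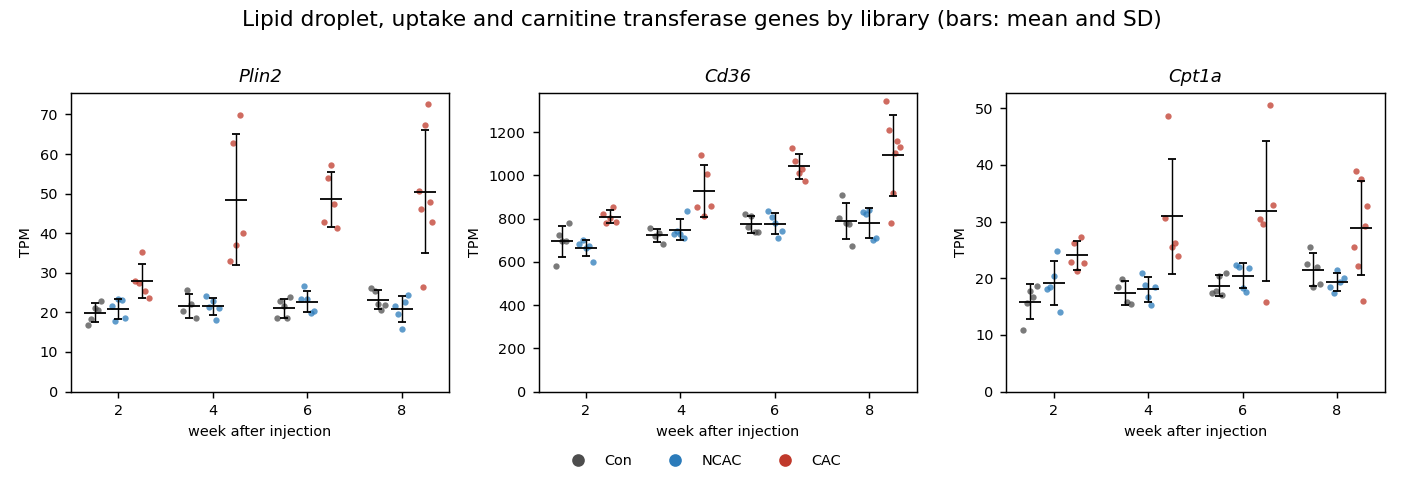
Plin2, Cd36 and Cpt1a in TPM by library and week (Con grey, NCAC blue, CAC red; points are hearts, bars mean and SD). Plin2 in CAC lies above both other arms at every week, and CAC replicate 3 at week 8 is the low heart for Plin2 (26.4 TPM) and Cd36 (779.9 TPM).

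The order of the levels in CAC at week 8 differed from that in Con and NCAC over all weeks. In CAC at week 8 the means were 1092 ± 187 TPM (SD, n = 7) for Cd36, 95.2 ± 21.9 for Pdk4, 50.5 ± 15.5 for Plin2, 28.9 ± 8.30 for Cpt1a, 22.5 ± 3.94 for Acot2, 21.3 ± 3.74 for Ucp2, 7.77 ± 4.57 for Ucp3, 7.33 ± 2.49 for Acot1 and 1.09 ± 0.57 for Angptl4. In the 39 Con and NCAC libraries the medians were 736 TPM for Cd36, 140.4 for Pdk4, 29.2 for Acot2, 21.6 for Plin2, 18.4 for Cpt1a, 18.0 for Ucp3, 8.71 for Ucp2, 5.86 for Acot1 and 2.03 for Angptl4. Cd36 and Pdk4 led both orders and Angptl4 closed them, while Ucp2 stood above Ucp3 in CAC at week 8 and below it in the pooled other arms. Acot1 came just before Angptl4 in both orders. By medians in CAC at week 8, however, Ucp3 (5.69 TPM) stood below Acot1 (7.17 TPM). In CAC at week 8, Cpt1a, Acot2 and Ucp2 differed by less than the SD of Cpt1a, and so did Ucp3 and Acot1 by less than theirs.

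The genes differed in how much they varied between hearts of the same group. The within-group SD on the log2 scale was 0.69 for Pdk4, 0.62 for Angptl4, 0.61 for Ucp3 and 0.45 for Acot1. It was 0.30 for Cpt1a, 0.28 for Ucp2, 0.27 for Plin2, 0.24 for Acot2 and 0.14 for Cd36. A difference of the same size was thus far easier to call for Cd36 than for Pdk4.

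Counted together, 1 of the 9 genes was called in CAC against Con at week 2 (Ucp3, higher), when 1.84% of all tested genes were called. At that week 6 of the 9 had an unadjusted p below 0.05, beside 2737 of the 12541 tested genes. At week 4, 6 were called, all higher (Pdk4, Plin2, Cpt1a, Acot1, Acot2 and Cd36), against 15% of all genes. At week 6, 5 were called, 4 higher and 1 lower, against 55.8%, and at week 8, 6 were called, 3 higher and 3 lower, against 60.8%. The shares at weeks 6 and 8 are near those of all genes. Rescaling changed these counts to 0, 5, 3 (2 higher, 1 lower) and 7 (3 higher, 4 lower). Of the 12541 tested genes, it called 51, 1068, 2436 and 3249 higher and 5, 862, 2251 and 3239 lower. The median difference of the 9 genes was 0.47, 0.75, -0.16 and 0.27 at weeks 2, 4, 6 and 8, beside 0.10, 0.09, 0.21 and 0.19 for all tested genes.

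The week 4 count leaned on single hearts. Without CAC replicate 2 at week 4, 2 of the 9 genes were called against Con. Replicates 2 and 4 of that group had 892 and 418 TPM of Serpina3n, against 29.8 to 52.3 TPM in the other 3, and a macrophage marker sum of 529 and 501 TPM against 401 to 429 TPM. These 2 hearts had the highest Ucp2, Ucp3, Pdk4, Plin2, Acot1, Acot2 and Cd36 of their group. The part of the acute-phase and macrophage genes in these levels was not tested.

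Against NCAC, 0 of the 9 were called by limma at week 2 (0.59% of all genes). At an unadjusted p below 0.05 there were 4, beside 1789 of the 12541 tested genes. At week 4, 3 were called, all higher (16.5% of all genes: Plin2, Cpt1a and Cd36), and at week 6, 5 were called, 3 higher and 2 lower (54.5%). Rescaling made this 2 higher and 3 lower at week 6, since Cpt1a was lost and Angptl4 was called lower (-0.93, limma adjusted p = 0.0413). At week 8, 7 were called, 4 higher (Ucp2, Plin2, Cpt1a and Cd36) and 3 lower (Ucp3, Pdk4 and Acot2), beside 66.1% of all genes (3 higher and 4 lower after rescaling). After rescaling, 2599 of the 12541 tested genes were higher and 2494 lower at week 6, and 3164 and 3273 at week 8. The comparisons with Con and with NCAC share the CAC hearts and are not independent of each other.

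NCAC against Con gave 0 called members in the limma fit at each week, beside 0% of all genes at weeks 2, 4 and 6 and 0.71% at week 8. At an unadjusted p below 0.05 there was 1, Acot1 at week 4 (0.66, 95% interval 0.07 to 1.25). At that week 103 of the 12541 tested genes passed the same cut. The intervals differ in width: at week 8 the NCAC difference from Con was -0.01 for Cd36 (95% interval -0.19 to 0.16), -0.16 for Plin2 (-0.48 to 0.17) and -0.24 for Ucp2 (-0.58 to 0.10). The intervals were wider for Ucp3 (-0.96 to 0.53), Pdk4 (-0.54 to 1.15) and Angptl4 (-0.91 to 0.62).

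**Figure D4:**
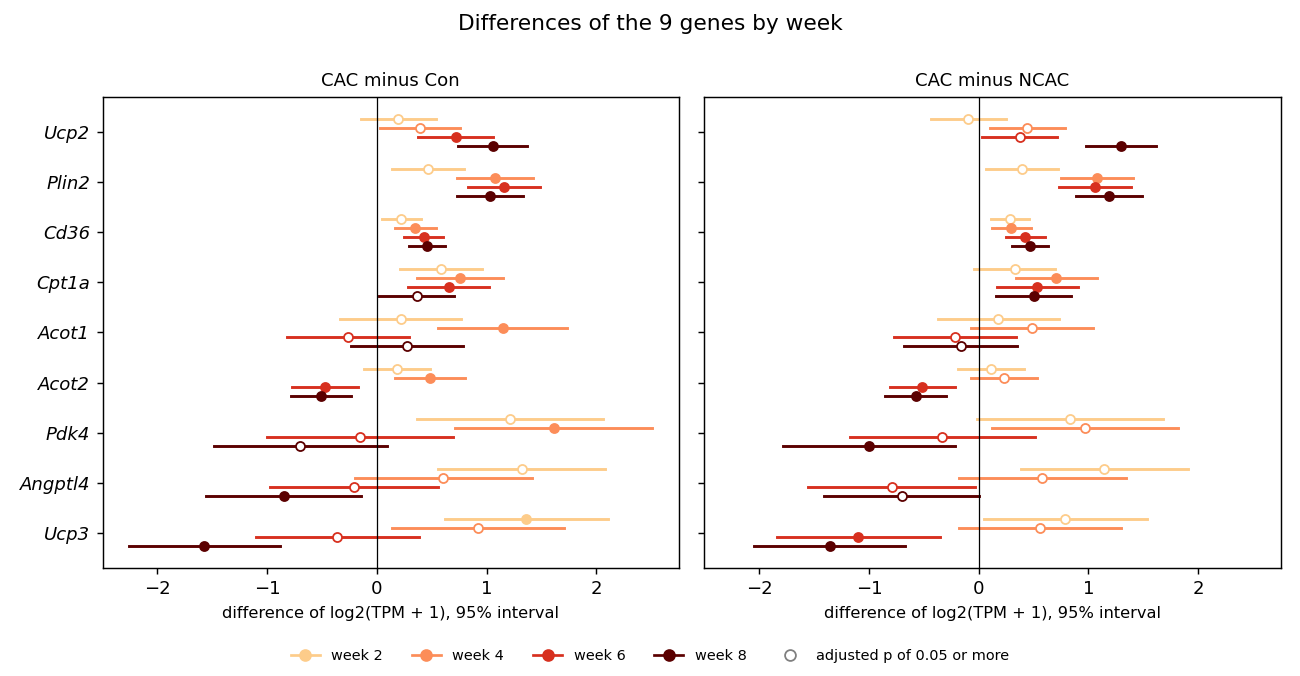
Log2 differences of the 9 genes by week, CAC minus Con and CAC minus NCAC, with 95% intervals. Filled points have a limma adjusted p below 0.05. Ucp2 climbs to 1.05 at week 8 against Con while Ucp3 goes from 1.36 to -1.57, and Plin2 stays near 1 from week 4.

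Whether the CAC difference itself changed with time was tested as a difference between weeks. From week 2 to week 8, the difference from Con fell for 4 genes, moving by -2.94 on the log2 scale for Ucp3 (SE 0.50, limma adjusted p = 2.35e-05), -2.17 for Angptl4 (SE 0.52, 0.00149), -1.91 for Pdk4 (SE 0.58, 0.0104) and -0.70 for Acot2 (SE 0.20, 0.00864). It increased for Ucp2 by 0.86 (SE 0.23, limma adjusted p = 0.00462). For Plin2 (0.57, limma adjusted p = 0.0511), Cd36 (0.23, 0.144), Cpt1a (-0.22, 0.543) and Acot1 (0.06, 0.928) no change was called. That is 5 of the 9 genes, beside 26.5% of all tested genes.

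From week 4 to week 8, it moved by -2.50 for Ucp3 (limma adjusted p = 0.00356), -2.31 for Pdk4 (0.0125) and -0.99 for Acot2 (0.00421), which is 3 of the 9 genes beside 7.69% of all. From week 6 to week 8, limma called 0 of the 9, beside 0.152% of all. An unadjusted p below 0.05 was found for 1 of them (Ucp3, -1.21) and for 981 of the 12541 tested genes. Each call of these week differences held in the rescaled fit and in all 21 or 22 fits that left out 1 heart.

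Against NCAC, which shares the CAC hearts, 6 of the 9 differences changed from week 2 to week 8, beside 35.7% of all genes. Ucp3 moved by -2.15 (limma adjusted p = 0.000959), Angptl4 by -1.85 (0.00487), Pdk4 by -1.83 (0.0114) and Acot2 by -0.68 (0.00781), while Ucp2 increased by 1.39 (1.19e-05) and Plin2 by 0.79 (0.00483). From week 4 to week 8, 4 changed, beside 16.9%: Ucp3, Pdk4 and Acot2 moved by -1.92, -1.97 and -0.80 and Ucp2 increased by 0.86. From week 6 to week 8, limma called 0, beside 0.167%. Below an unadjusted p of 0.05 were 1 (Ucp2, 0.92, limma adjusted p = 0.0782) and 1483 of the 12541 tested genes. After rescaling Ucp2 was called there (0.86, limma adjusted p = 0.0371).

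These week differences also include any change in the arm compared with CAC, so each arm was read alone as well. In CAC alone, week 8 against week 2 gave 3 genes higher (Ucp2 by 1.21, Plin2 by 0.78 and Cd36 by 0.41) and 4 lower (Ucp3 at -1.93, Angptl4 at -1.52, Pdk4 at -1.03 and Acot2 at -0.40), beside 52.7% of all genes; the Pdk4 and Acot2 calls were lost in 3 and 2 of 12 fits that left out 1 heart. In Con alone, limma called 0 of the 9, beside 1.36% of all genes. At an unadjusted p below 0.05 there were 5, beside 2138 of the 12541 tested genes. Ucp3 in Con had a mean of 23.9 ± 8.40 TPM (SD, n = 5) at week 8 and 11.5 ± 4.47 at week 2. That difference was 1.01 (limma adjusted p = 0.138). In NCAC alone, limma called 0 of the 9, beside 0% of all genes. The 1 below an unadjusted p of 0.05 was Cd36 (0.23), beside 625 of the 12541 tested genes.

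Hearts of the same group also varied together for some of the genes. Over 61 libraries, with each group's mean taken out, all 36 pairs of the 9 genes were correlated, and the 5 pairs with the largest Pearson r were chosen for naming after their values were seen. Ucp3 and Angptl4 had r = 0.73 and Spearman's rho = 0.72, and within the arms r was 0.71 in CAC, 0.84 in NCAC and 0.66 in Con. Ucp3 and Pdk4 had r = 0.69 and rho = 0.71 (0.66, 0.61 and 0.79 in the same arms). Leaving out the 2 libraries farthest from the median of the first gene gave r = 0.70 and 0.68.

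The pair Acot1 and Acot2, which share sequence, had r = 0.67 and rho = 0.66, and Pdk4 and Acot2 had r = 0.60 and rho = 0.58. For these 4 pairs the permutation p was 1e-05 for r and rho, the smallest that 100000 permutations within groups can give (9e-05 and 7.2e-05 adjusted over the 36 pairs). Acot1 and Cd36 had r = 0.61 and rho = 0.62 (permutation p = 2e-05 for both, adjusted 0.000144 for r). The neighbours Ucp2 and Ucp3 had r = 0.12 and rho = 0.12 (permutation p = 0.384 for r, adjusted 0.432). All points of a library share its TPM scaling.

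By group means, the genes fell into courses that can be described but not tested. Over the 12 group means of log2(TPM + 1), Pearson's r was 0.95 for Plin2 with Cpt1a, 0.94 for Plin2 with Cd36, 0.87 for Ucp2 with Cd36 and 0.93 for Ucp3 with Angptl4. It was -0.43 for Ucp2 with Ucp3 and -0.47 for Ucp2 with Acot2. Among all tested genes with a standard symbol, the 3 most like Ucp3 were Angptl4 itself, Slc25a42 and Mgl2 (r = 0.93, 0.91 and 0.90), and the 3 most like Pdk4 were Mlycd, Cpt1b and Ehhadh (0.93, 0.91 and 0.89). The closest to Ucp2 were Atp10a, Mtmr6 and Pdpn (0.98 each), and to Plin2 Rad50, Tapt1 and Muc1 (1.00, 0.99 and 0.99). Acot1 had no close likeness, with Zfand5 and Chrna2 (0.77 and 0.76) among its nearest. Acot2 was nearest Ephx2, Cat and Pdp1 (0.89, 0.89 and 0.88), Cpt1a nearest Lmo7, Abcb8 and Sema4d (0.98, 0.97 and 0.97), Cd36 nearest Tlr4, Ankrd28 and Ankrd45 (0.98 each), and Angptl4 nearest Ucp3, Mgl2 and Dsc2 (0.93, 0.90 and 0.90).

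No PPAR or retinoid X receptor was called in CAC against Con at weeks 2 and 4 before rescaling. Of 18 PPARs, retinoid X receptors and coregulators, 2 were called at each of these weeks, both higher, beside 1.84% and 15% of all genes. The number with an unadjusted p below 0.05 was 8 at week 2 and 4 at week 4, beside 2737 and 3741 of the 12541 tested genes. The called genes were Nr0b2 (0.57 and 0.32) and Lpin1 (0.42 and 0.35). Rescaling left 1 at week 2, and at week 4 it left neither and gave Pparg as lower (-0.40, limma adjusted p = 0.0214). At week 8, 3 were higher and 3 lower, beside 50.8% and 9.98% of all genes. Their median was -0.02 beside 0.19 for all genes. Higher were Klf15 (0.75), Nr0b2 (0.43) and Lpin1 (0.36), and lower were Ppargc1b (-0.46), Esrrb (-0.37) and Rxrg (-0.34). After rescaling, 1 was higher (Klf15) and 12 were lower, beside 3249 higher and 3239 lower of the 12541 tested genes. The direction of this group thus depended on the scaling. Ppara, the main PPAR of the heart, stood at 16.6 ± 2.56 TPM (SD, n = 7) in CAC and 20.5 ± 2.58 (n = 5) in Con at week 8, a difference of -0.29 (limma adjusted p = 0.222), or -0.50 (0.0374) after rescaling. Ppard, Pparg and the coactivator Ppargc1a differed by 0.03, 0.02 and -0.11, none of them called, and by -0.17, -0.17 and -0.33 after rescaling, when Ppard and Ppargc1a were called lower (limma adjusted p = 0.0118 and 0.0377).

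Other PPAR targets and fatty acid oxidation genes were read from a list of 44, of which 42 were tested. At week 2, 1 was called in CAC against Con (Lpl, higher by 0.43), beside 1.84% of all genes, and at week 4, 9 were called, all higher, beside 15%. Lpl was again among them (0.53). Before rescaling, 16 of the 42 had an unadjusted p below 0.05 at week 2, beside 2737 of the 12541 tested genes. After rescaling, 0 were called at week 2 (Lpl at 0.32, limma adjusted p = 0.095). At week 4, 8 were then higher and 1 lower, beside 1068 and 862 of the 12541 tested genes. At week 8, 9 were higher and 20 lower, beside 50.8% and 9.98% of all genes. The median of the 42 was -0.16 beside 0.19 for all genes. After rescaling, 6 were higher and 27 lower at week 8, beside 3249 and 3239 of the 12541 tested genes.

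The lower genes at week 8 included enzymes of the mitochondrial spiral of fatty acid oxidation. Acads was 99.9 ± 10.5 TPM (SD, n = 7) in CAC and 151 ± 14.2 (n = 5) in Con (-0.60, limma adjusted p = 2.23e-10), and Hadha was 263 ± 32.0 and 394 ± 34.7 (-0.58, 1.25e-09). Acadm and Etfdh differed by -0.54 and -0.58. Cpt2 differed by -0.47 (limma adjusted p = 4.61e-06), while Cpt1b, the muscle form, differed by -0.10 and was not called (0.137), but was called after rescaling (-0.32, limma adjusted p = 8.96e-06). In the same hearts Cpt1a stood at 0.36, and the median ratio of Cpt1b to Cpt1a was 10.6 in CAC and 15.7 in Con. Ucp3, Acot2 and Angptl4 were thus lower at week 8 together with 20 of these 42 genes, and Plin2, Cd36 and Ucp2 were higher together with 9 of them, Lpl included.

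**Figure D5:**
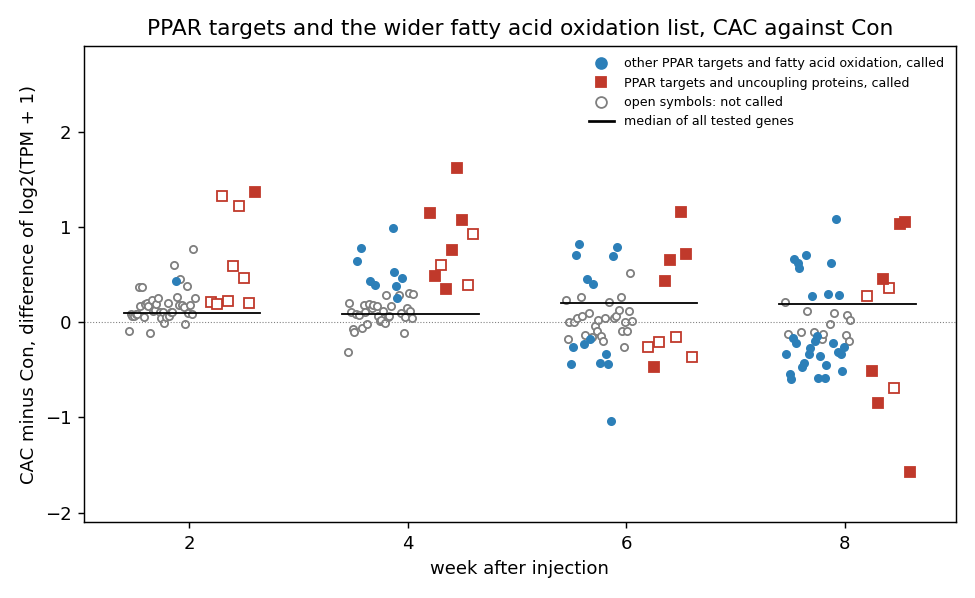
Log2 difference of CAC minus Con by week for the 9 genes (squares, red where called) and the 42 other tested PPAR target and fatty acid oxidation genes (circles, blue where called), with a black line at the median of all tested genes. At week 8 the other genes have a median of -0.16, and the 9 genes spread from Ucp3 at -1.57 to Ucp2 at 1.05.

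Around lipoprotein lipase, whose inhibitor Angptl4 was lower at week 8, 3 of 7 tested genes were higher and 2 lower in CAC at that week, or 3 and 4 after rescaling, beside 60.8% of all genes called in either direction. Lpl itself was higher by 0.62 (limma adjusted p = 2.94e-07), Gpihbp1, which anchors the enzyme to capillaries, by 0.82 and the hormone-sensitive lipase Lipe by 0.58. Around lipid droplets, 9 of 18 were higher and 4 lower at week 8, beside 50.8% and 9.98% of all genes. After rescaling 5 were higher and 7 lower, beside 3249 and 3239 of the 12541 tested genes, so the balance turned with the scaling. Plin4 was 189.9 ± 63.3 TPM (SD, n = 7) in CAC and 84.0 ± 12.1 (n = 5) in Con (1.08, limma adjusted p = 0.000127). Plin5, the perilipin that ties droplets to mitochondria, was lower, at -0.31 (limma adjusted p = 0.0061). The median ratio of Plin2 to Plin5 went from 0.321 to 0.798 over weeks 2 to 8 in CAC and stayed between 0.273 and 0.307 in Con.

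Fat cells also express Plin2, Cd36 and Angptl4, and white fat markers were higher in CAC at week 8. The sum of 6 such markers had a median of 16.9 TPM in CAC at week 8 (range 1.08 to 23.4), 1.74 in Con and 7.82 in NCAC. Against Con, 3 of the 3 tested markers were called higher, beside 50.8% of all genes. Against NCAC, 0 of the 3 were called at week 8, while 3 were called higher at week 6. Of all tested genes, 57.4% and 47.7% were higher than in NCAC at these weeks. Lep, a defining marker, was at 0 in 40 of the 61 libraries. At week 4, when Plin2 was already higher, the sum was 2.49 TPM in CAC and 1.49 in Con. CAC replicate 1 at week 8 had the lowest marker sum of its group, 1.08 TPM, with 50.7 TPM of Plin2 and 1342 TPM of Cd36. The part of fat cells in these results was not tested.

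Beside Pdk4, 11 genes of the pyruvate dehydrogenase complex and its regulators were read. Limma called 0 of them in CAC against Con at weeks 2 and 4, beside 1.84% and 15% of all genes. An unadjusted p below 0.05 was found for 3 and 2 of them, beside 2737 and 3741 of the 12541 tested genes. After rescaling, 2 were called lower at week 4, beside 862 of the 12541. At week 8, 2 were higher and 6 lower, beside 50.8% and 9.98% of all genes. Pdk3 was higher by 0.65, and Pdp2 (-0.73), Pdhb (-0.50), Dlat (-0.25) and Pdk2 (-0.22) were lower. After rescaling, 1 was higher and 9 lower at week 8, beside 3249 and 3239 of the 12541 tested genes. The median ratio of Pdk4 to Pdk2 was 0.956, 1.16, 0.738 and 0.586 in CAC at weeks 2, 4, 6 and 8, and 0.514, 0.634, 1.00 and 0.910 in Con.

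Beside the uncoupling proteins, 7 related mitochondrial carriers were tested. At week 8, 5 were higher and 1 lower (2 and 2 after rescaling), when 50.8% of all tested genes were higher and 9.98% lower. Higher were Slc25a30 (0.74) and Slc25a14 (0.33), both of the uncoupling branch of the family, and Slc25a5 (0.24, no longer called after rescaling), an adenine nucleotide carrier, and lower was Slc25a11 (-0.23). Beside the thioesterases, 7 other family members gave 3 higher and 2 lower at week 8 (1 and 3 after rescaling). Among them were Acot7 (-0.90) and Acot9 (0.58). The rescaled counts of both lists stand beside 3249 higher and 3239 lower of the 12541 tested genes.

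Fatty acid uptake and binding genes, the group of Cd36, gave 4 higher and 3 lower of 13 at week 8 (1 and 8 after rescaling). Of all tested genes, 50.8% were higher and 9.98% lower at that week, and after rescaling 3249 and 3239 of 12541. Slc27a3 was higher by 0.84, and the heart's fatty acid binding protein Fabp3 was lower, at -0.36. Glucose genes gave 4 higher and 7 lower of 16 at week 8 (4 and 10 after rescaling). Ldha, which makes lactate, was higher by 0.61, and the hexokinase Hk2 was lower, at -0.66.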

How the data were processed

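RNA from 62 mouse hearts was extracted with Trizol, made into libraries with the TruSeq stranded mRNA kit and sequenced on an Illumina NovaSeq, per the labels' protocols. The authors deposited 1 table of TPM per gene symbol and library. The build was mm10, per the submitters' processing notes, and the aligner, counter and annotation are not given in the sources used here. TPM carries no read depth, so no counting intervals are given.

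Differences were computed here on log2(TPM + 1), where 1 TPM is the pseudocount, for genes that reached 1 TPM in 5 or more libraries. The limma-trend method (limma 3.58.1, R 4.3.3) was fitted to all 12 groups at once without Con week 4 replicate 2, with Benjamini-Hochberg adjustment within each comparison and a threshold of 0.05. The fit was tested on simulated data. A median-of-ratios rescaling over 14527 genes was an alternative, as were a pseudocount of 0.1 TPM, no filter and one of 5 TPM, array weights, a replicate block, the compared groups alone, a rescaling without mitochondrial genes, the left-out heart put back and leave-one-out fits.

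The 9 genes and all lists were chosen with earlier results of these data known. Named from the lists were up to 4 called genes with the smallest p in CAC against Con at week 8, every called gene where 5 or fewer were called, close relatives of the 9 genes, and the 3 genes most like each over group means. A few genes that this rule names are not reported here. Positions and sequences came from GENCODE M21 and RefSeq (GRCm38.p6). Identities were computed with Biopython 1.88.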

Additional observations from a re-analysis of the deposited data

Results flagged for a closer look

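In 7 of 108 sets of a gene in a group, 1 heart stood outside the others by Dixon's 95% criterion, and chance gives about 1 set in 20. Each was the highest of its group. These were CAC replicate 1 at week 6 for Ucp2 (21.8 TPM), NCAC replicate 1 at week 6 (402 TPM) and NCAC replicate 3 at week 8 (257 TPM) for Pdk4, and CAC replicate 4 at week 6 for Angptl4 (4.57 TPM). The others were CAC replicate 2 at week 4 for Cpt1a (48.6 TPM), NCAC replicate 4 at week 2 for Acot2 (38.3 TPM) and NCAC replicate 5 at week 4 for Cd36 (836 TPM).

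The effect of cachectic melanoma differed between weeks by a limma test for 6 of the 9 genes in at least 1 of 6 comparisons. Against Con, 26.5%, 7.69% and 0.152% of all tested genes were called from weeks 2, 4 and 6 to week 8. The shares against NCAC were 35.7%, 16.9% and 0.167%. The share of all genes called in at least 1 comparison was not computed. Against Con, from week 2 to week 8, the log2 difference moved by -2.94 for Ucp3, -2.17 for Angptl4, -1.91 for Pdk4, -0.70 for Acot2 and 0.86 for Ucp2. From week 4 to week 8 it moved by -2.50 for Ucp3, -2.31 for Pdk4 and -0.99 for Acot2. Against NCAC, with the same CAC hearts, the moves from week 2 to week 8 were -2.15 for Ucp3, -1.85 for Angptl4, -1.83 for Pdk4, -0.68 for Acot2, 1.39 for Ucp2 and 0.79 for Plin2. From week 4 to week 8 they were -1.92 for Ucp3, -1.97 for Pdk4, -0.80 for Acot2 and 0.86 for Ucp2.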

How the results depend on the processing

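No result changed direction past the threshold under any alternative run. In CAC against Con at week 2, where 1 gene was called, array weights gave 5, the filter of 5 TPM gave 2, and the compared groups alone, no filter, the replicate block, both rescalings and the return of Con replicate 2 at week 4 each gave 0; leaving out 1 heart gave 0 to 2. At week 4 (6 called), leaving out 1 heart gave 2 to 7. At week 6 (5 called), both rescalings gave 3. In CAC against NCAC at week 2 (0 called), array weights gave 3, the compared groups alone 1, and leaving out 1 heart 0 to 1; at week 4 (3 called), leaving out 1 heart gave 1 to 4; at week 6 (5 called), the return of the left-out heart gave 3. The cause of these moves was not tested. Same-numbered hearts shared only a number (correlations of -0.28 to 0.41 over 58 pairs), and with the replicate block 3 calls were lost: Ucp3 against Con at week 2 (limma adjusted p = 0.0527), Angptl4 against Con at week 8 (0.132) and Pdk4 against NCAC at week 8 (0.083). A pseudocount of 0.1 TPM changed 0 of 108 gene results. The leave-one-out fits of the week differences were chosen after seeing the data. Read depth, which would limit Angptl4 most, is not given.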
